A study of Homo sapiens with 4 samples.

Results

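Keratins KRT4, KRT13, KRT15, KRT19, KRT5, KRT6A and KRT10 were followed through 4 RNA-seq libraries labelled as HaCaT cells, an established line of immortalised human skin keratinocytes. These 7 genes were taken by name from a table of 58825 genes, and they belong to the 54 type I and type II keratin genes in it. They were chosen because of how they differed between the groups compared here, so their differences are given as a description, with no p-value. All cells grew in MEPICF500 medium with 1.2 mM calcium, were described as induced to differentiate, and had been treated with lentivirus. The control group carried the hairpin labelled shNC and the knockdown group the hairpin labelled shlnc-DC, against the long noncoding RNA lnc-DC, with 2 libraries labelled as biological replicates in each group. The labels do not say whether replicates came from separate transductions, so any p-value measures the spread between these libraries alone, and a single hairpin stands for the knockdown.

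Keratins are the intermediate filament proteins of epithelia, and each filament is built from a pairing of an acidic type I with a basic type II chain. The pair that a cell makes marks its place: KRT5 with KRT14 in the basal layer, KRT10 with KRT1 in the spinous layers of skin, KRT13 with KRT4 in the upper layers of moist epithelia such as mouth and oesophagus, KRT6A with KRT16 in wounds and fast-growing epidermis, and KRT18 with KRT8 in simple epithelia. KRT15 is a further type I keratin of basal cells and hair follicle stem cells, and KRT19, the shortest keratin, lacks most of the usual tail domain. Of the 7 genes, KRT13, KRT15, KRT19 and KRT10 are type I, and KRT4, KRT5 and KRT6A are type II.

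The 120 bases before the transcription start are shown for KRT4, the member with the steepest difference, for KRT5, which differed less, and for KRT10, which hardly differed, since these bases hold the core promoter. They are RefSeq sequences on GRCh38.p14, written 5′ to 3′ on the minus strand that carries each gene, from chr12:52814117-52814236, chr12:52520395-52520514 and chr17:40822615-40822734 respectively. RefSeq windows were matched for these 3 of the 7 members. The starts are those of RefSeq: the GENCODE 29 spans of KRT4 and KRT5 reach past these windows, so transcripts that begin farther upstream are annotated there, and that of KRT10 ends short of its window. Capitals mark the match to TATAA, or for KRT5 to ATAAA.
KRT4: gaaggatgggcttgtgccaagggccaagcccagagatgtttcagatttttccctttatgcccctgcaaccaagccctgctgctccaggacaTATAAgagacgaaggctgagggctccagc
KRT5: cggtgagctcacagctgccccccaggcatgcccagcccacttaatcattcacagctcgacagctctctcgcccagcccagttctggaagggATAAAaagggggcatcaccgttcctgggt
KRT10: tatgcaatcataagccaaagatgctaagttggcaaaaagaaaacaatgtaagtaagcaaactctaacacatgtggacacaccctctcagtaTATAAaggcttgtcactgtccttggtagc

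In each of the 3 windows the capitals begin at base -29, counted back from the start. TATAA was present on either strand in 10.2% of the 35116 windows of this length in the RefSeq table, and on the gene's strand with its first base between -32 and -26 in 3.32%. ATAAA, which overlaps TATAA by 4 bases where an A follows it, was present on either strand in 17.8% of windows and at those positions in 3.74%. KRT10 holds ATAAA as well, overlapping its TATAA, and KRT4 holds it on the opposite strand at -67. Of the other motifs searched on both strands, TGANTCA (3.3% of windows) and GGGCGG (34.0%) were in none of the 3 windows. CANNTG (37.4%) was in those of KRT5 and KRT10, and CACCC (33.6%) in that of KRT10 alone. The KRT10 window was 39.2% G and C, against 55.0% for KRT4 and 60.0% for KRT5, and 11.01% of all windows had as little as KRT10. Such matches are descriptions of letters, and binding at them was not measured.

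Values are FPKM, fragments normalised to transcript length and library size, so levels of different genes can be compared on the FPKM scale, but read counts and hence depth are unknown. The targeted gene WFDC21P, which gives rise to lnc-DC, stood at 2.15 and 2.76 FPKM in control and at 0.09 and 0.29 FPKM in knockdown libraries. Of 14 keratinocyte markers 13 were above 1 FPKM in at least 1 library, among them KRT5, TP63, COL17A1 and DSG3, but KRT14, a defining keratin of basal keratinocytes, did not exceed 0.35 FPKM in any. The simple-epithelial keratin KRT7 had 256 and 257 FPKM in control and 268 and 228 FPKM in knockdown libraries. Near absence of KRT14 goes against the usual keratin profile of HaCaT cells, and no reference profile was compared here. The cell line is therefore named only as the labels give it. Of the markers of other cell types, 0 of 10 fibroblast genes, 1 of 8 melanocyte genes (MITF), 2 of 9 immune genes (CD14 and CD68) and 1 of 5 endothelial genes (CDH5) exceeded 1 FPKM in any library. SOX10, TYR, PTPRC, COL1A2 and KDR were listed at 0 in all 4. The summed FPKM of the keratinocyte markers ranged from 1234 to 1330 in control and from 758.7 to 791.6 in knockdown libraries, while that of the immune markers ranged from 13.4 to 13.9 and from 13.7 to 13.9. Melanocyte markers summed to 3.38 to 4.68 FPKM in control and 4.13 to 4.39 FPKM in knockdown libraries, endothelial markers to 3.61 to 4.58 and 3.93 to 6.44 FPKM, and fibroblast markers to 0.64 to 0.72 and 0.49 to 0.61 FPKM. The part of these cell types in the results was not tested. The share of mitochondrial transcripts in all FPKM was 41.2% and 41.9% in control and 28.1% and 26.8% in knockdown libraries. Since FPKM is relative to a total, each fold of a member is also given after rescaling the nuclear genes to the same sum.

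Of the 7 members, 6 were lower in both knockdown libraries than in both control libraries, and 1, KRT10, was higher in both, though under quantile normalization its sign was the opposite. Over all 12411 tested genes, 19.2% were lower without overlap and 35.6% higher without overlap. The median log2 difference of the 7 members, knockdown minus control on the log2(FPKM + 1) scale, was -1.14, beside 0.09 for all tested genes. In the fit over all genes, KRT4 and KRT15 were among the genes below a limma adjusted p of 0.05 on the lower side, 0.137% of those tested, and no member was on the higher side, with 0.113%. Because the members were picked on this contrast, these counts test nothing and nothing is read from them. Calls over all genes were 14 higher and 17 lower (13 and 24 under median centring, 17 and 40 under quantile normalization). In bulk RNA, fewer cells of a type and less RNA per cell cannot be told apart.

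**Figure D1:**
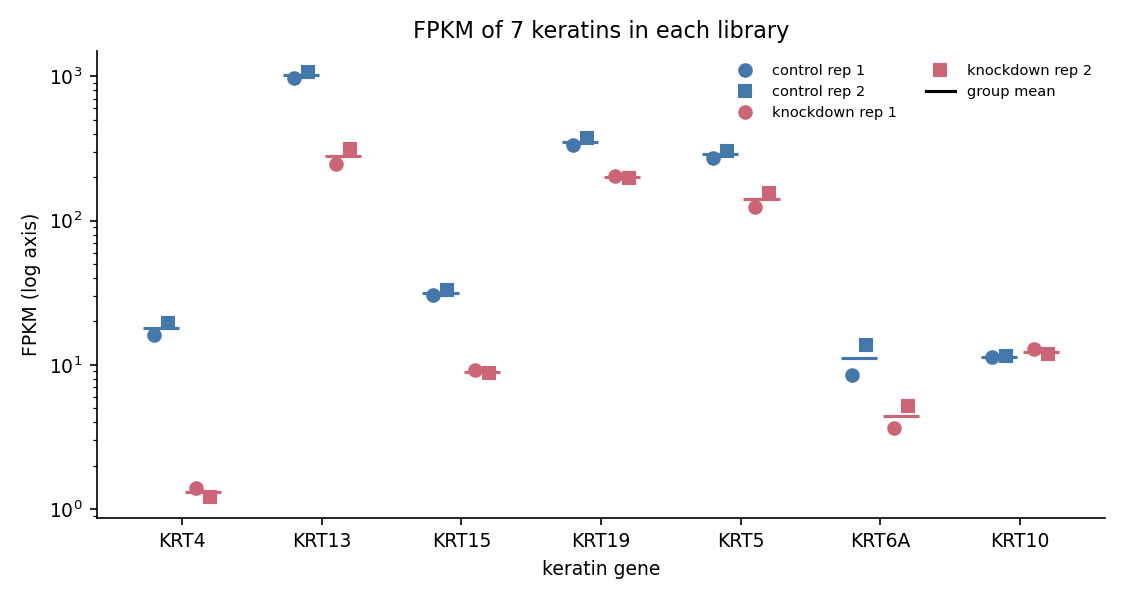
FPKM of each of the 7 keratins (log axis) in the 2 control libraries (blue) and the 2 knockdown libraries (red), with replicate 1 as circles, replicate 2 as squares and lines at the group means. The red points lie below the blue points for 6 genes, with the widest gap for KRT4, and slightly above them for KRT10, whose sign turned under quantile normalization.

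KRT4, the type II mucosal keratin (ENSG00000170477), had 16.2 and 19.5 FPKM in control and 1.41 and 1.22 FPKM in knockdown libraries. Both knockdown values were far below both control values, and the replicates of a group were close to each other by comparison. The mean went from 17.9 ± 2.35 to 1.31 ± 0.134 FPKM (SD, n = 2 per group), 13.6-fold lower, or 14.0-fold with nuclear genes rescaled. The log2 difference was -3.02 (SE 0.141), and with a pseudocount of 0.1 in place of 1 it was -3.66. Ranked by FPKM among the 12411 tested genes, KRT4 moved from places 2317 and 1914 in control to 11027 and 11028 in knockdown libraries, from the upper part of the range to near its lower end.

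KRT13, the type I partner of KRT4 (ENSG00000171401), had 969.9 and 1071 FPKM in control and 247 and 313 FPKM in knockdown libraries. It was the most abundant keratin in 3 of the 4 libraries, while in knockdown replicate 1 KRT7 stood higher, at 268 FPKM. The groups lay far apart. The mean was 3.65-fold lower in the knockdown (3.76-fold with nuclear genes rescaled), with a log2 difference of -1.87 (SE 0.174). It was place 25 of all tested genes in both control libraries and places 86 and 76 in knockdown libraries. Even at the lower level KRT13 was within the top 0.693% of tested genes.

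The partners did not differ by the same factor. The FPKM of KRT13 was 59.9 and 54.8 times that of KRT4 in control and 175 and 256 times in knockdown libraries, so the ratio was higher in both knockdown libraries. By FPKM, KRT4 was thus a minor chain beside KRT13 in every library.

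KRT15, a type I keratin of basal cells (ENSG00000171346), had 30.3 and 33.0 FPKM in control and 9.24 and 8.71 FPKM in knockdown libraries. The replicates of each group were within a few FPKM of each other. The mean was 3.53-fold lower (3.63-fold with nuclear genes rescaled), with a log2 difference of -1.71 (SE 0.109). KRT13 kept much the same proportion to KRT15 throughout, at 32.0 and 32.5 times its FPKM in the control and 26.7 and 35.9 times in knockdown libraries. These ratios overlap between the groups.

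KRT19, the short type I keratin (ENSG00000171345), had 334 and 371 FPKM in control and 202 and 198 FPKM in knockdown libraries. All 4 values were high, and the knockdown pair lay below the control pair. The mean was 1.76-fold lower (1.81-fold with nuclear genes rescaled), with a log2 difference of -0.81 (SE 0.124). KRT19 stood at 11.04 and 11.24 times the FPKM of KRT15 in control and at 21.9 and 22.8 times in knockdown libraries, a ratio that did not overlap between groups. Beside KRT13 the order was kept but narrowed, with KRT13 at 2.90 and 2.89 times KRT19 in control and 1.22 and 1.58 times in knockdown libraries.

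KRT5, the basal type II keratin (ENSG00000186081), had 270.1 and 304 FPKM in control and 124 and 156 FPKM in knockdown libraries. Again the groups did not overlap. The mean was 2.05-fold lower (2.12-fold with nuclear genes rescaled), with a log2 difference of -1.04 (SE 0.164). Its usual type I partner KRT14 was listed at 0.35 and 0.25 FPKM in control and 0.08 and 0.14 FPKM in knockdown libraries, so these cells held abundant KRT5 mRNA beside little or none assigned to KRT14.

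KRT6A, the inducible type II keratin of wounded epidermis (ENSG00000205420), had 8.45 and 13.7 FPKM in control and 3.63 and 5.14 FPKM in knockdown libraries. Relative to their mean, its control replicates were farther apart than those of the other members. The mean was 2.52-fold lower (2.59-fold with nuclear genes rescaled), with a log2 difference of -1.14 (SE 0.267). Leaving out 1 library at a time moved the fold between 1.93 (without control replicate 2) and 3.12 (without control replicate 1). The near-identical genes KRT6B and KRT6C did not exceed 0.09 and 0.21 FPKM. The longest coding transcript of KRT6A in GENCODE 29 shares 39.1% of its 50-base windows, and 9.25% of its windows of the read length of 150 bases, exactly with a transcript of another gene, mainly KRT6C and KRT6B. How reads were divided among the 3 genes is uncertain. The other 6 members shared at most 3.99% of 50-base windows and none of 150 bases. For KRT14, which is not a member, these shares were 23.8% and 0.59%.

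KRT10, the type I keratin of spinous epidermis (ENSG00000186395), had 11.2 and 11.6 FPKM in control and 12.8 and 11.9 FPKM in knockdown libraries. All 4 values lay close together, with the knockdown pair marginally higher. The mean was 1.08-fold higher, and with nuclear genes rescaled the control mean was 0.954 times the knockdown mean. On the log2(FPKM + 1) scale this was a log2 difference of 0.10 (SE 0.106), about the median of all tested genes, 0.09. Under median centring it was 0.02 and under quantile normalization -0.02, so its direction depends on the scaling. KRT1, the usual partner of KRT10, was listed at 0 in all 4 libraries.

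The order of levels in control was KRT13, KRT19, KRT5, KRT15 and KRT4, and then KRT6A and KRT10, whose control values overlapped. In the knockdown libraries it was KRT13, KRT19, KRT5, KRT10, KRT15, KRT6A and KRT4. There the values of neighbours in the order did not overlap, though KRT13 in replicate 1 stood only 1.22-fold above KRT19. In the control group all 7 members were higher in replicate 2 than in replicate 1, and in the knockdown group 3 of 7 were. The summed FPKM of nuclear genes was also higher in replicate 2, at 196667 against 187945 in control and 201240 against 195151 in knockdown libraries. The share of all tested genes higher in replicate 2 was not counted.

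**Figure D2:**
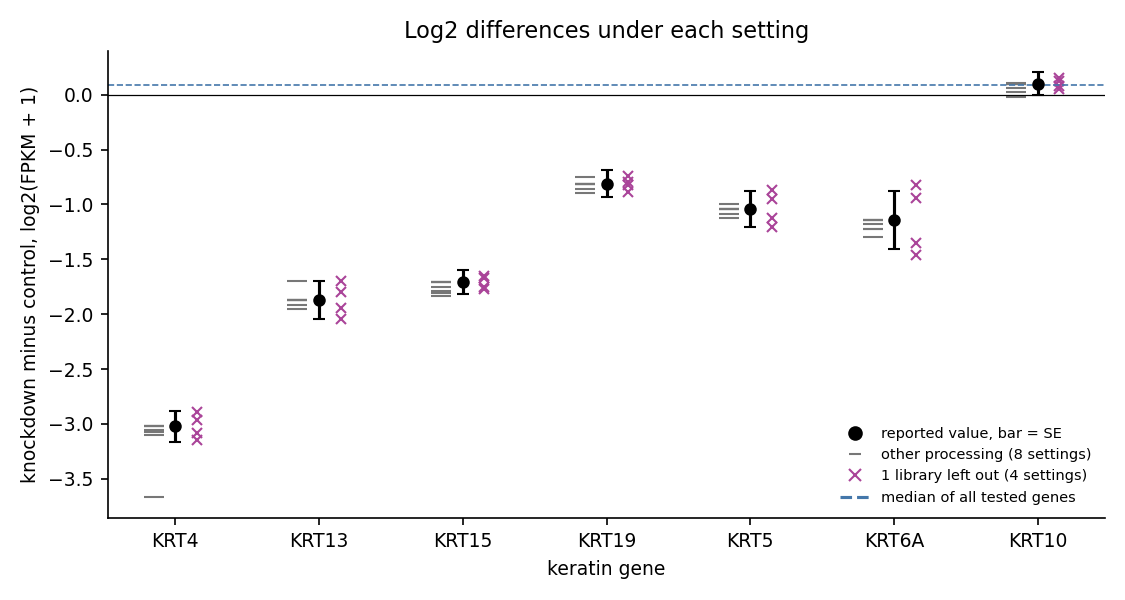
Log2 difference (knockdown minus control, log2(FPKM + 1)) of each member, with the reported value and its SE in black, 8 other processing settings as grey ticks, 4 settings that leave out 1 library as crosses and the median of all tested genes as a dashed line. Only KRT10 lies near 0, KRT6A moves most when a library is left out, and KRT4 moves with the pseudocount, to -3.66.

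The make-up of the whole keratin pool differed accordingly. Summed over 54 keratin genes, FPKM was 2322 and 2531 in control and 1234 and 1306 in knockdown libraries. The 7 members held 70.7% and 72.0% of that sum in the control and 48.6% and 53.2% in knockdown libraries. The other 47 keratins together held 680.8 and 707.4 FPKM in control and 634.7 and 611.6 FPKM in knockdown libraries, nearly all of it KRT7, KRT8 and KRT18. As a share of all FPKM the members made up 0.513% and 0.539% in control and 0.221% and 0.252% in knockdown libraries, a mean 2.22-fold lower. With mitochondrially encoded transcripts left out of the total, that share was 2.76-fold lower.

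KRT13 made up 64.0% of the difference in the mean pool. It was 41.8% and 42.3% of keratin FPKM in control and 20.0% and 23.9% in knockdown libraries. The share of KRT19 (14.4% and 14.7%, then 16.4% and 15.2%) and of KRT5 (11.63% and 12.03%, then 10.02% and 11.96%) hardly moved, these genes being lower by about as much as the whole pool, whose mean was 1.91-fold lower. The simple-epithelial chains took up a larger share, KRT18 going from 11.2% and 11.5% to 18.3% and 18.05%, with FPKM of 259 and 291 in control and 226 and 236 in knockdown libraries.

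The balance of the types differed too. Type I keratins summed to 2.25 and 2.36 times the type II keratins in control and to 1.301 and 1.431 times in knockdown libraries. Without KRT13, that ratio was 0.892 and 0.941 in control and 0.841 and 0.849 in knockdown libraries, so the excess of type I FPKM over type II was KRT13. These sums rest on mRNA values, and protein was not measured.

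**Figure D3:**
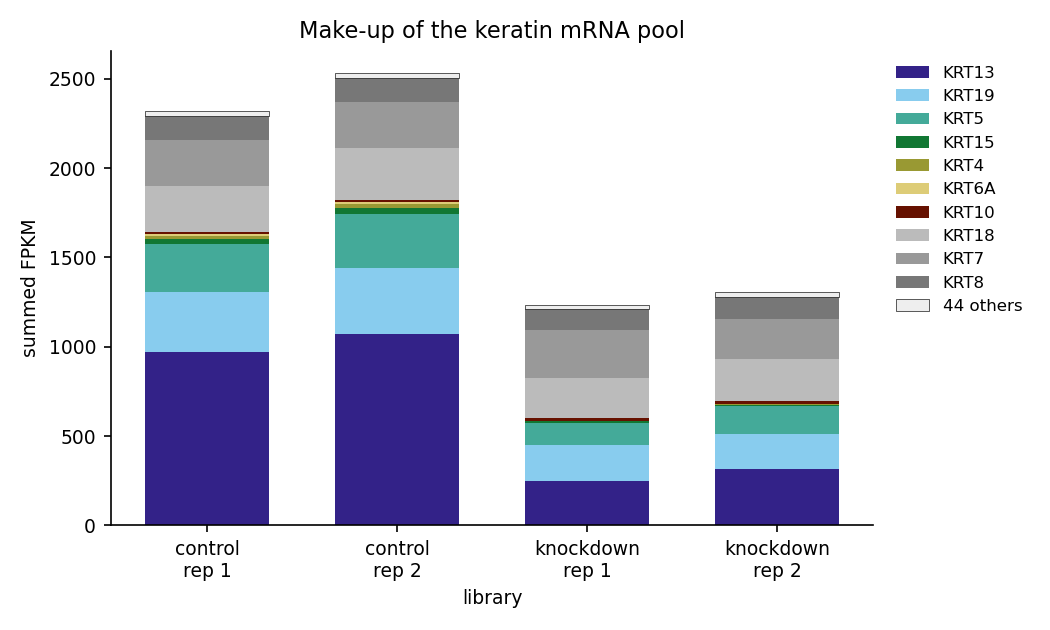
Summed FPKM of 54 keratin genes in each library, as stacked bars from 0, with the 7 members in colour, KRT18, KRT7 and KRT8 in grey and the remaining 44 genes in white. The bars are about 2322 and 2531 FPKM high in control and 1234 and 1306 in knockdown libraries, and the dark KRT13 segment shrinks most.

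The members lie in the keratin clusters of chromosomes 12 and 17 (GENCODE 29, GRCh38), all on the minus strand. KRT13 (chr17:41500981-41505705), KRT15 (chr17:41513743-41522529) and KRT19 (chr17:41523617-41528308) are direct neighbours, with 8038 bases between the first pair and 1088 between the second, and they were lower by 3.65, 3.53 and 1.76-fold in that order. KRT10 (chr17:40818117-40822595) lies in the same cluster but 15 places away from KRT13 in the order of keratin genes. On chromosome 12, KRT6A (chr12:52487174-52493257) and KRT5 (chr12:52514575-52520687) are next to each other, while KRT4 (chr12:52806549-52814551) stands between KRT3 and KRT79. KRT8, a simple-epithelial keratin 82636 bases from KRT4, had 138 and 132 FPKM in control and 119.7 and 121 FPKM in knockdown libraries.

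Several keratin genes beside the members had low values that were lower still in the knockdown. KRT3, a keratin of the cornea that lies next to KRT4, was listed at 1.48 and 1.25 FPKM in control and at 0.25 and 0.18 FPKM in knockdown libraries (log2 difference -0.96, limma adjusted p = 0.0923). KRT9, the keratin of palms and soles and the next keratin gene after KRT19, was at 0.46 and 0.31 FPKM in control and 0.06 and 0.07 FPKM in knockdown libraries. KRT78 was at 0.22 and 0.18 FPKM in control and 0.04 FPKM in both knockdown libraries. KRT14, the next keratin gene after KRT9, was at 0.35 and 0.25 FPKM in control and 0.08 and 0.14 FPKM in knockdown libraries. Between KRT14 and the end of the cluster, KRT16 (at most 0.35 FPKM) overlapped between groups. KRT17 stood at 0.85 and 0.78 FPKM in control and 0.68 and 0.66 FPKM in knockdown libraries. These values are at or below the level of 1 FPKM used for testing, apart from KRT3 in control, the group through which it was tested. Whether their reads came from these genes was not tested.

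Overlapping annotation touched the members little. An antisense gene shares 16.3% of the exon bases of KRT13 on the opposite strand and was listed at 0 in all 4 libraries. TMEM99, on the opposite strand, shares 2.6% of those of KRT10 and had 5.92 and 6.24 FPKM in control and 7.33 and 7.42 FPKM in knockdown libraries (limma adjusted p = 0.265). MIR6510 lies inside KRT15, shares 2 of its exon bases, and had 1.85 and 0.75 FPKM in control and 0.02 and 0.81 FPKM in knockdown libraries, values that overlap (limma adjusted p = 0.343). The libraries were made with dUTP in the second strand, which marks strand, but whether strand was used in counting is not given in the sources used here.

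**Figure D4:**
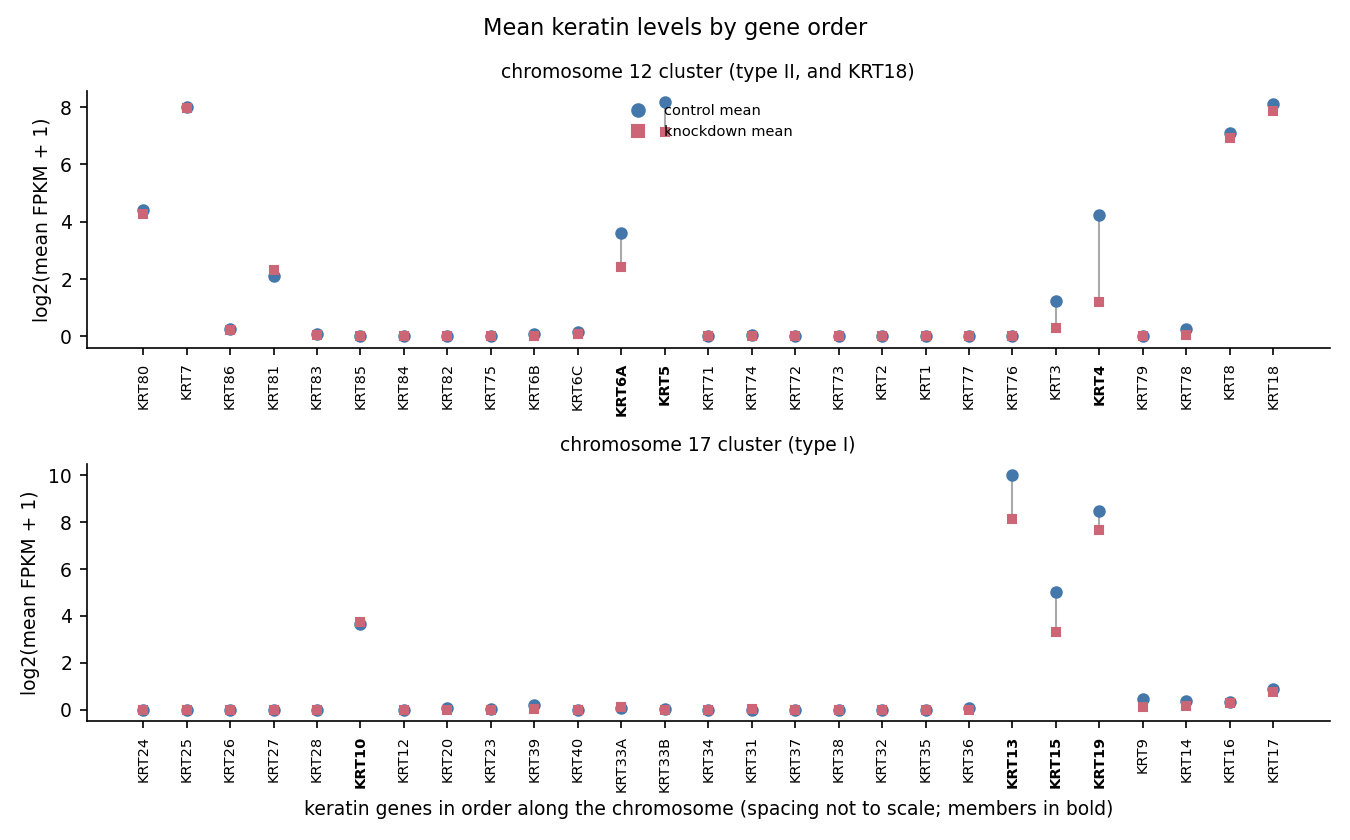
Mean level, as log2(mean FPKM + 1), of each keratin gene in control (blue circles) and knockdown (red squares) in gene order along the chromosome 12 and chromosome 17 clusters, members in bold, spacing not to scale. Most genes lie at or near 0, and the adjoining KRT13, KRT15 and KRT19 are all lower in the knockdown while KRT10, KRT7, KRT8 and KRT18 nearly coincide.

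Among the 47 other keratins, 22 were listed at 0 in all 4 libraries and only 6 were tested: KRT18, KRT3, KRT7, KRT8, KRT80 and KRT81. None passed limma's adjusted threshold, which 0.25% of all tested genes passed. Of the 6, only KRT3 had an unadjusted p under 0.05, as did 22.8% of all tested genes. KRT3 was tested only through its control mean of 1.365 FPKM, with a knockdown mean of 0.215 FPKM. Given that filter, its mean could only be lower in the knockdown. The 5 tested type II genes, KRT3 among them, had a median log2 difference of -0.15. KRT18, the single tested type I gene, stood at -0.25 (limma adjusted p = 0.316). KRT8 differed by -0.17 (adjusted p = 0.411) and KRT81, a hair keratin, by 0.22 (adjusted p = 0.391). KRT80, a keratin of several stratified epithelia, had overlapping groups, with 20.6 and 19.7 FPKM in control and 15.2 and 21.5 FPKM in knockdown libraries.

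Genes that anchor keratin filaments to desmosomes and hemidesmosomes were counted in the same way. Of 17 tested genes 0 passed limma over all genes, where 0.25% of all tested genes did. At that share, a count of 0 in a list this short says little about the list. An unadjusted p under 0.05 was found for 5 (22.8% of all tested genes). Below 0 were 11 (38.6% of all tested genes), and the median log2 difference was -0.14. The smallest p belonged to EVPL, envoplakin of the cornified envelope, which had 1.79 and 1.89 FPKM in control and 6.11 and 5.06 FPKM in knockdown libraries (adjusted p = 0.0661). Its partner periplakin, PPL, differed the other way, with 24.9 and 22.2 FPKM in control and 17.8 and 17.5 FPKM in knockdown libraries (adjusted p = 0.149). DSC2, a desmosomal cadherin, differed by -0.55 (adjusted p = 0.127), and PLEC, the plakin that ties keratins to hemidesmosomes, by 0.37 (adjusted p = 0.155).

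Of 14 tested genes for proteins that bind keratin filaments or act in their turnover, 0 passed limma over all genes. An unadjusted p under 0.05 was found for 4. Over all tested genes these shares were 0.25% and 22.8%. Their median log2 difference was 0.04 and they lay on both sides of 0, 6 below and 8 above. SQSTM1, the autophagy receptor p62, had 50.4 and 50.6 FPKM in control and 104 FPKM in both knockdown libraries (limma adjusted p = 0.055). HSPB8, a small heat shock protein, had 5.99 and 6.25 FPKM in control and 13.5 and 11.9 FPKM in knockdown libraries (adjusted p = 0.0723). SFN, the epithelial 14-3-3 protein, stood lower, at 292 and 318 FPKM in control and 167 and 174 FPKM in knockdown libraries (adjusted p = 0.0747), and HSPB1 differed by -0.53 (adjusted p = 0.181).

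Of 33 tested transcription factors and receptors that regulate keratin genes, 0 passed limma over all genes (0.25% over all tested genes). An unadjusted p under 0.05 was found for 9 (22.8% over all). Below 0 were 18 (38.6% over all), and the median log2 difference was -0.05. ELF3, an ETS factor of differentiating epithelia, came closest, with 51.1 and 53.4 FPKM in control and 22.7 and 23.9 FPKM in knockdown libraries (limma adjusted p = 0.0533). It passed in 3 of 12 alternative settings, with 0.0391 when a mean of 5 FPKM was required, 0.0413 with nuclear genes rescaled and 0.0376 under quantile normalization, within a range of 0.0376 to 0.255 over the 12 settings. JUNB differed by -0.56 (adjusted p = 0.109), KLF4, a factor of suprabasal differentiation, by -0.45 (adjusted p = 0.126) and NFE2L2, which codes for NRF2, by 0.42 (adjusted p = 0.118). PAX6 and HOPX were listed at 0 in all 4 libraries.

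KRT4 and KRT13 are typical of non-keratinized stratified epithelium, so other genes of that epithelium were counted. Only 17 of 40 were tested, and 11 were listed at 0 in all 4 libraries, among them CRNN, SPRR3, TGM3, RHCG and TMPRSS11D, which mark the upper oesophageal layers. Of the 17, 0 passed limma over all genes and 8 had an unadjusted p under 0.05, beside 0.25% and 22.8% of all tested genes. The median log2 difference was -0.48, beside 0.09 for all tested genes, with 13 of 17 below 0 and 4 above (38.6% of all tested genes were below 0). Without overlap between groups 11 were lower and 3 higher, where 19.2% and 35.6% of all tested genes were. The list was written with earlier results of these data known, so these counts and the median test nothing.

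The genes named from that list were lower in both knockdown libraries. SERPINB1, an inhibitor of neutrophil proteases, had 118 and 141 FPKM in control and 61.3 and 65.8 FPKM in knockdown libraries (limma adjusted p = 0.0723). The membrane mucin MUC20 had 4.08 and 3.76 FPKM in control and 1.56 and 1.27 FPKM in knockdown libraries (limma adjusted p = 0.0723), and PSCA, a surface antigen of glandular and mucosal epithelia, had 1.97 and 2.14 FPKM in control and 0.29 and 0.58 FPKM in knockdown libraries (adjusted p = 0.0849). These values do not reach the threshold of 0.05. PSCA was tested only through its control mean of 2.055 FPKM, with a knockdown mean of 0.435 FPKM. Given that filter, its mean could only be lower in the knockdown.

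Of 13 genes for other intermediate filaments 4 were tested, and 0 passed limma or had an unadjusted p under 0.05. Over all tested genes these shares were 0.25% and 22.8%. LMNB1 and LMNB2, the B-type lamins, differed by 0.32 (limma adjusted p = 0.229) and 0.21 (adjusted p = 0.321). LMNA, which codes for the A-type lamins, and SYNM, synemin, had overlapping groups. The lists named here and the 7 members entered the same fit, so their values share the same libraries. All the lists were written with earlier results of these data known.

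**Figure D5:**
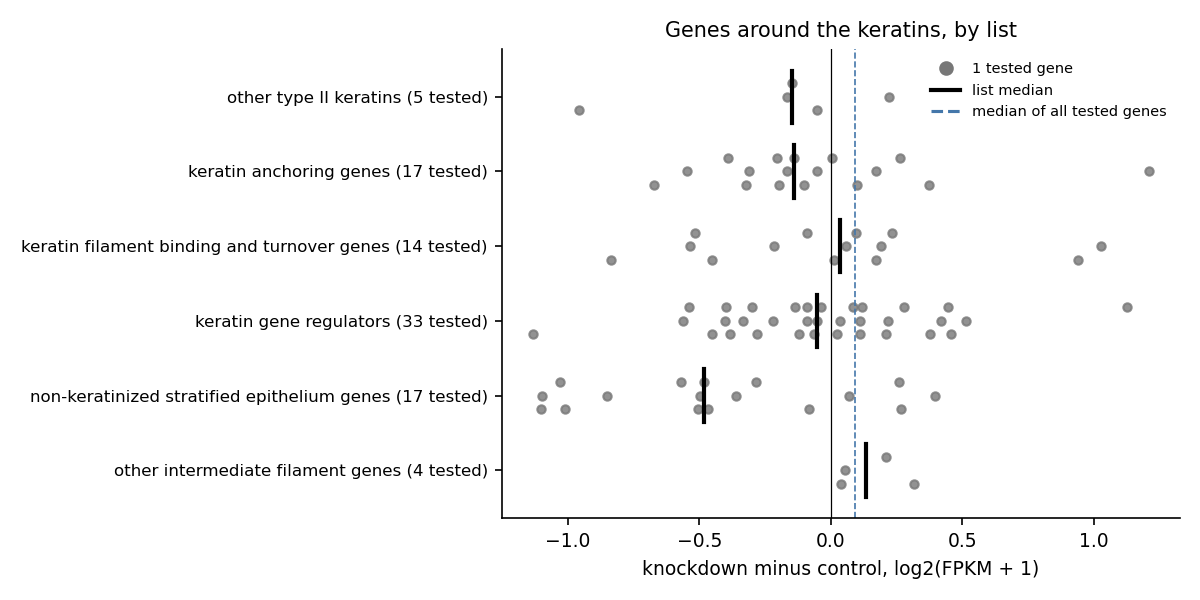
Log2 difference (knockdown minus control, log2(FPKM + 1)) of each tested gene (dots) in 6 gene lists, with the list median as a black bar and the median of all tested genes, 0.09, as a dashed line. The genes of non-keratinized stratified epithelium have the lowest median, -0.48, and the other 5 list medians lie between -0.15 and 0.13. The lists were written with earlier results of these data known.

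The genes whose values followed each member most closely over the 4 libraries were found by the Euclidean distance between log2(FPKM + 1) values centred on each gene's mean. The nearest to KRT4 were RPL32P29, a ribosomal protein pseudogene (distance 0.398), and LYPD2 (0.522). LYPD2 had 6.37 and 5.85 FPKM in control and 0.16 and 0.21 FPKM in knockdown libraries. RPL32P29 and LYPD2 were tested only through their control means of 9.435 and 6.11 FPKM. Their knockdown means were 0.6 and 0.185 FPKM, so given the filter of 1 FPKM they could only be lower in the knockdown. MMP7, the epithelial protease matrilysin (0.132), and TNFSF10, the ligand TRAIL (0.168), were nearest to KRT13. MMP7 had 9.16 and 11.7 FPKM in control and 1.80 and 2.59 FPKM in knockdown libraries. Complement factor B, CFB (0.26), and BANF1 (0.278) were nearest to KRT15.

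Nearest to KRT19 were ETHE1 (0.0414) and PGRMC1 (0.0489), and for KRT5 the retinoid-induced RARRES3 (0.0461) and CLTRN (0.0679). CA11 (0.181) and TP53TG1 (0.181) were nearest to KRT6A, and ARVCF (0.0138) and MRPL2 (0.0146) to KRT10. RARRES3 had 20.1 and 22.4 FPKM in control and 8.30 and 11.1 FPKM in knockdown libraries. With a pseudocount of 0.1, 2 of these 14 pairs of member and nearest gene remained, so the nearest genes depend on that choice. With only 4 libraries, nearness mostly restates the size of the difference between groups.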

How the data were processed

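The authors deposited a table of FPKM values for 58825 genes in 4 libraries, with a ratio (fold) column and a log2 ratio column, which were not used for any value here. Per the submitters' processing notes, the tools were StringTie 1.3.4d, HISAT2 2.0.4, cutadapt 1.9, edgeR and DESeq2, whose roles are not stated, and for the genome build and annotation these sources name none. All 7 members were found in GENCODE 29 by gene ID. There were 0 per-sample columns without a sample of the series.

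After a log2(FPKM + 1) transform, 12411 genes whose mean reached 1 FPKM in either group were fitted with limma 3.58.1 under R version 4.3.3 (trended prior, no term besides group, two-sided), with Benjamini-Hochberg adjustment over all of them and a threshold of 0.05. An exact permutation test of 2 against 2 libraries cannot go below 0.333. Members and gene lists were chosen with earlier results of these data known. Named genes were the members, up to 4 genes with the smallest p in each list, partner keratins, the 2 tested genes nearest in pattern to each member, and neighbours within 100 kb. One gene that this rule names is not reported here. The genes named beside these as listed at 0, the markers and the antisense and overlapping genes were named after their values were seen. The code was tested on simulated data with known changes. In all, 12 alternative settings were tried.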

Additional observations from a re-analysis of the deposited data

How the results depend on the processing

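Differences of KRT4, KRT13, KRT15, KRT19, KRT5 and KRT6A stayed below 0 in all 12 alternative settings, while KRT10 ranged from -0.02 to 0.15. KRT4 and KRT15 were past the limma threshold in 6 of 12 settings and KRT13 in 3 of 12, counts that test nothing since this contrast chose the members. In place of 31 genes called, limma called 58 with a mean of 5 FPKM required, 57 under quantile normalization, 17 with trend off, 0 with no filter (3876 with unadjusted p under 0.05) and 0 without any 1 of the 4 libraries, control replicates 1 and 2 or knockdown replicates 1 and 2 (1797 to 2251). With the replicate number as a block 0 genes passed limma. In that fit 3791 genes had an unadjusted p under 0.05, against 2827 in the reported fit. The SE of each member was smaller there, for KRT13 0.0855 in place of 0.174. Same-numbered libraries deviated together with a correlation of 0.124 across genes. The labels do not say whether they share a batch, and 2 pairs are too few to tell. The median over the members was -1.30 with a pseudocount of 0.1 and -1.46 to -0.94 when 1 library was left out, since the median member, KRT6A, varied most. SQSTM1 was the single call among filament binding genes (1 with 5 FPKM required), ELF3 among regulators (1 with 5 FPKM required, with nuclear genes rescaled and under quantile normalization), and SERPINB1 among genes of non-keratinized epithelium (1 under quantile normalization). The members' share of FPKM was 2.76-fold lower without mitochondrially encoded genes, and 2 of 14 nearest pairs remained with the smaller pseudocount. Signs turned for KRT80 (-0.385 to 0.089 when 1 library was left out), LMNA (-0.025 under median centring, -0.078 under quantile normalization, -0.038 to 0.147 when 1 library was left out) and SYNM (-0.042 under median centring, -0.149 to 0.226 when 1 library was left out). The cause was not tested. Depth is unknown, which limits what can be said of values under 1 FPKM.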
